A study of Mus musculus with 11 samples.

Results

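The mitochondrial ribosomal protein genes are the nuclear genes named Mrps and Mrpl, which encode proteins of the small and large subunit of the ribosome inside mitochondria. They were found by matching the identifiers of the table of heart counts to protein-coding symbols of GENCODE mouse release M21 that begin with Mrps or Mrpl and a number, with a mean of at least 1 CPM, the count of a gene relative to the scaled total of its library, over 11 mice. This gave 78 genes of the 22608 rows of the table, and none of the genes with such a symbol was lost to the limit on level. By their proteins, 26 belong to the small subunit and 51 to the large subunit, among them Mrps30 and Mrps18a in spite of their symbols. Mrps36 is in neither, since its protein is now known as a part of the ketoglutarate dehydrogenase complex. The genes lie on 17 chromosomes.

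RNA was sequenced from the ventricles of 11 male mice, 8 to 16 weeks old, on a C57BL/6J background. CD mice carry a heterozygous complete deletion of the interval that corresponds to the Williams-Beuren syndrome critical region, and WT mice are their littermates. JZL184, which blocks the 2-AG-degrading enzyme monoacylglycerol lipase and so raises this endocannabinoid, was injected daily at 8 mg/kg for 10 days, and control mice received the vehicle (the treatment field of the labels calls them untreated, their titles vehicle). Vehicle was given to 2 WT mice (WT VEH) and 3 CD mice (CD VEH), and JZL184 to 3 mice of either genotype (WT JZL184 and CD JZL184), each mouse a separate animal.

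The mitochondrial ribosome translates only the mRNAs of the mitochondrial genome, all of which encode subunits of the respiratory chain and ATP synthase. Its rRNAs are made in the mitochondrion, whereas its proteins are made in the cytoplasm and imported, so that each ribosome joins products of both genomes. Heart muscle depends on this machinery for ATP, and inherited defects of some members, such as MRPL3, MRPL44 and MRPS22 in humans, are known to cause cardiomyopathy. Of the 78 genes, 45 encode proteins with a counterpart in bacterial ribosomes, 29 encode proteins particular to mitochondrial ribosomes and 4 were assigned to neither class. The mitochondrial rRNAs were not analysed here.

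A mouse had 69660329 to 92251550 counts in total. The lowest count of a member in any mouse was 983, and counting error was not compared with the spread of single members between mice. The biological coefficient of variation common to all genes was 9.13%. Transcripts of mitochondrial DNA made up 39.4% and 41.2% of the total in WT VEH, 45.0% to 46.6% in WT JZL184, 43.5% to 44.7% in CD VEH and 36.4% to 40.1% in CD JZL184, so that WT JZL184 and CD VEH were above the other groups without overlap. With these genes left out of the fit, 66 of 67 calls of the members named here were kept. Exons of 28 members overlap exons of a gene on the opposite strand and those of 8 overlap a gene on the same strand. Of the 78 members 10, most of them among these, share at least 20% of their 31-base words with another gene, so that the split of their reads is uncertain.

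The members were expressed at moderate levels, with a median of 33.7 CPM over the mice and a lowest mean of 15.02 CPM. Per kilobase of transcript, Mrpl42, a large subunit protein particular to mitochondria, had the highest level at 367 CPM per kilobase, followed by Mrps21 at 154 and Mrpl30 at 139.9. Lowest were Mrps25 at 4.08 CPM per kilobase, Mrps26 at 5.03 and Mrpl19 at 5.16, against a median of 30.3 over the 78 genes. This order depends on the annotated length, since these have the longest mean transcripts of the members (6073, 4278 and 5000 bases). Their means were 24.8, 21.5 and 25.8 CPM, above the lowest member. Mrps25 also shares 68.9% of its words with Nr2c2, and Mrpl19 35.8% with Gcfc2. The summed level of all members was 3103 and 3170 CPM in the WT VEH mice, 3064 to 3341 CPM in WT JZL184, 3272 to 3441 CPM in CD VEH and 3009 to 3085 CPM in CD JZL184. All CD VEH mice were above both WT VEH mice, all CD JZL184 mice were below them, and WT JZL184 overlapped WT VEH. In bulk tissue, fewer cells of a type and less RNA per cell cannot be told apart.

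**Figure D1:**
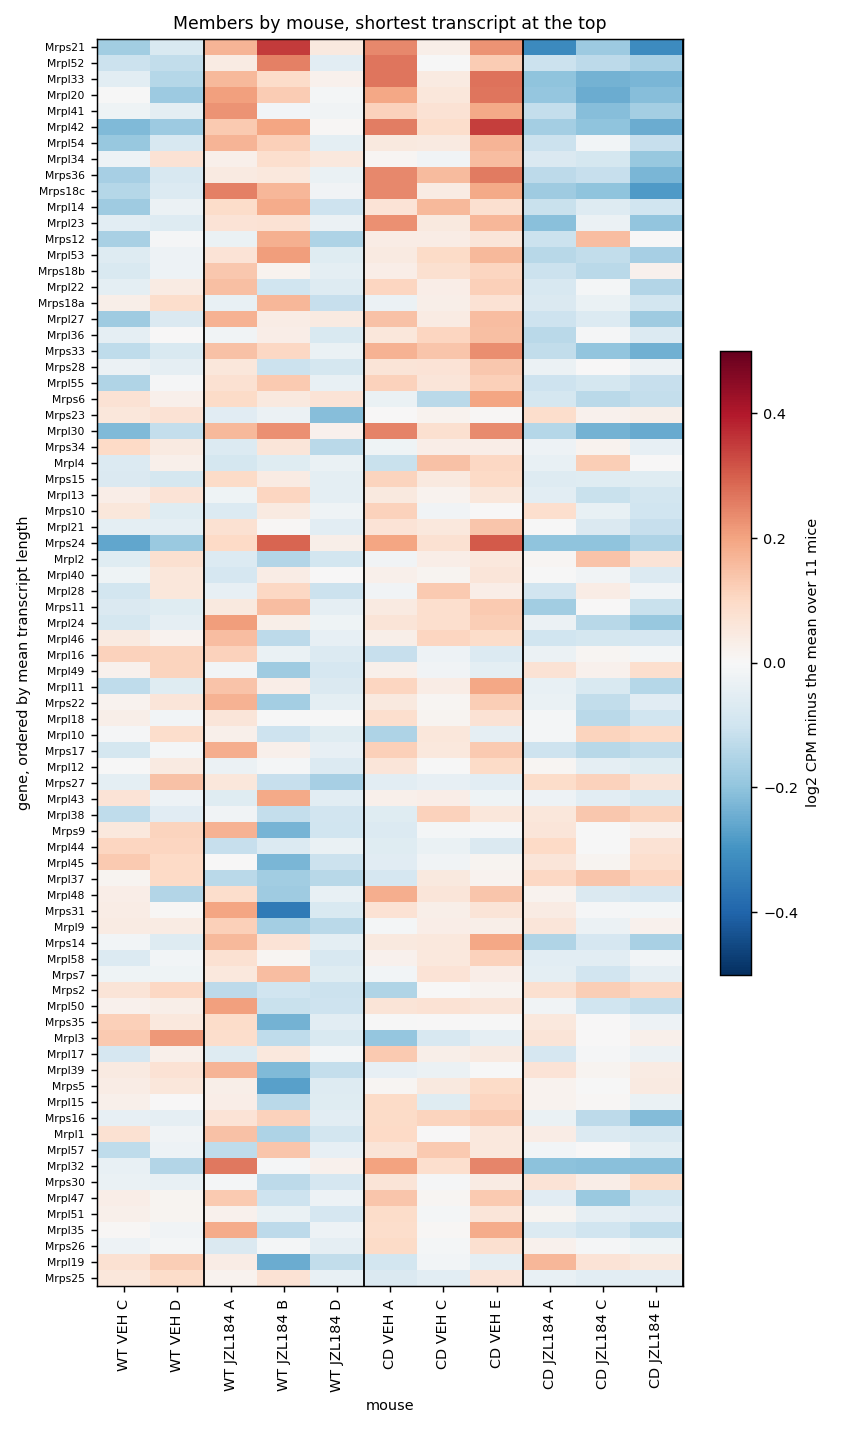
Level of the 78 genes (rows, shortest mean transcript at the top) in 11 mice (columns, by group), as log2 CPM minus the gene's mean over the mice. The rows at the top are red in CD VEH and in most WT JZL184 mice and blue in CD JZL184 and WT VEH, and lower rows show weaker or opposite colours.

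The members did not move together. In CD VEH against WT VEH, edgeR's quasi-likelihood test called 12 of 78 members higher and 2 lower at an adjusted p under 0.05, with a median log2 fold-change of 0.07. Over the 11319 tested genes 15% were called higher and 15.4% lower, so 12 higher members are near the background share. Mrpl42 had the largest log2 fold-change, and was 184.9 and 189.9 CPM in WT VEH against 258, 229 and 274 CPM in CD VEH. It rose by 0.44 ± 0.09 (SE, edgeR adjusted p = 0.0055), and the groups did not overlap. Mrps24, of the small subunit and with a bacterial counterpart, rose by 0.42 ± 0.09 (edgeR adjusted p = 0.0067), from 34.7 and 36.5 CPM in WT VEH to 47.7, 43.7 and 51.4 CPM in CD VEH. Mrpl30 rose by 0.36 ± 0.08 (edgeR adjusted p = 0.0089). Mrpl3, a large subunit protein with a bacterial counterpart, and Mrpl44, particular to mitochondria, went the other way, at -0.28 ± 0.07 (edgeR adjusted p = 0.017) and -0.16 ± 0.06 (edgeR adjusted p = 0.046). Mrpl3 was 80.4 and 85.4 CPM in WT VEH against 64.1, 69.4 and 71.1 CPM in CD VEH, without overlap. Without mouse C of WT VEH 0 members were called in either direction, and with an offset for gene length 2 were higher and 8 lower.

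In WT JZL184 against WT VEH, 5 of 78 members were called higher and 4 lower with a median log2 fold-change of 0.00, where 15.4% of all tested genes were called higher and 14% lower. Mrps24 (0.36 ± 0.09), Mrps21 (0.32 ± 0.10) and Mrpl42 (0.32 ± 0.09) rose, with edgeR adjusted p of 0.011, 0.028 and 0.018. Mrps24 was 44.4, 50.8 and 42.4 CPM in WT JZL184 against 34.7 and 36.5 CPM in WT VEH, without overlap. The 4 members that fell had mean transcripts of 1424 to 2080 bases. These were Mrpl45 (-0.22), a protein near the exit tunnel of the large subunit, Mrpl37 (-0.21), Mrps2 (-0.20) and Mrpl44 (-0.18), with edgeR adjusted p of 0.031, 0.024, 0.037 and 0.032. Without either WT VEH mouse 0 members were called, and with the compared groups alone in the model 1 was higher and 0 lower. With upper-quartile scaling 9 were higher and 1 lower. With an offset for gene length 1 was higher and 14 lower, and Mrps21 turned to -0.029.

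JZL184 in CD mice (CD JZL184 against CD VEH) gave 24 of 78 members called lower and 0 higher, with a median log2 fold-change of -0.12. Over all tested genes 17% were called lower and 16.8% higher. DESeq2 also called 0 members higher, and 3 were higher at an unadjusted p under 0.05 in edgeR. Without mouse A of WT JZL184 2 members were called higher. The share of members called lower was above the background share, but with an offset for gene length, described further on, 7 were lower and 13 higher, against 12.2% and 14.8% of all tested genes. No test of the list was made. The largest decreases were those of Mrpl42 and Mrps21, of -0.44 each (edgeR adjusted p = 0.0028 and 0.0042), and Mrpl33 at -0.42 (edgeR adjusted p = 0.0025). Mrpl42 was 192, 188 and 181 CPM in CD JZL184, below the 229 to 274 CPM of CD VEH and near the 184.9 and 189.9 CPM of WT VEH. Mrps21 was 46.2, 50.9 and 46.5 CPM in CD JZL184 against 68.2, 58.8 and 67.5 CPM in CD VEH, and the groups did not overlap. Smaller decreases passed the test in Mrps15 (-0.15), Mrpl36 (-0.17) and Mrpl55 (-0.20), and with that offset these values turned to 0.045, 0.074 and 0.045 and were not called. Without mouse E of CD JZL184, or without mouse E of CD VEH, 12 members were called lower, and without mouse A of CD VEH 15.

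Between the genotypes under JZL184 (CD JZL184 against WT JZL184), 18 of 78 members were called lower and 5 higher with a median log2 fold-change of -0.07, where 20.1% of all tested genes were lower and 18.2% higher. Mrps21 (-0.46), Mrps18c (-0.36) and Mrpl30 (-0.35) had the largest decreases, with edgeR adjusted p of 0.0022, 0.0047 and 0.0037. Mrpl37 (0.27), Mrps2 (0.22), Mrpl19 (0.20), Mrpl38 (0.18) and Mrpl2 (0.18) were higher, with edgeR adjusted p of 0.0032, 0.012, 0.041, 0.032 and 0.031. Mrpl37 was 51.4, 50.1 and 51.3 CPM in WT JZL184 against 60.7, 62.2 and 60.8 CPM in CD JZL184, and did not overlap. Without mouse A of WT JZL184 15 members were called higher. With an offset for gene length the balance turned to 2 lower and 17 higher (median 0.08).

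Between CD JZL184 and WT VEH no member passed the test, with a median log2 fold-change of -0.04, and 0.0442% of all tested genes were called higher and 0.141% lower. At an unadjusted p under 0.05 edgeR gave 2 members, and DESeq2 called 0. For the genotype by JZL184 interaction, which tests whether the JZL184 effect differs between CD and WT mice, 25 of 78 members were called lower and 8 higher, with a median of -0.13. Over all tested genes 26.2% were lower and 25.3% higher. The strongest negative terms were Mrpl42 and Mrps21 (-0.76 each) and Mrps24 (-0.75), and Mrpl19 and Mrpl3 (0.35 each) and Mrps2 (0.34) had the strongest positive ones. These comparisons share their control mice, so their lists are not independent of each other.

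**Figure D2:**
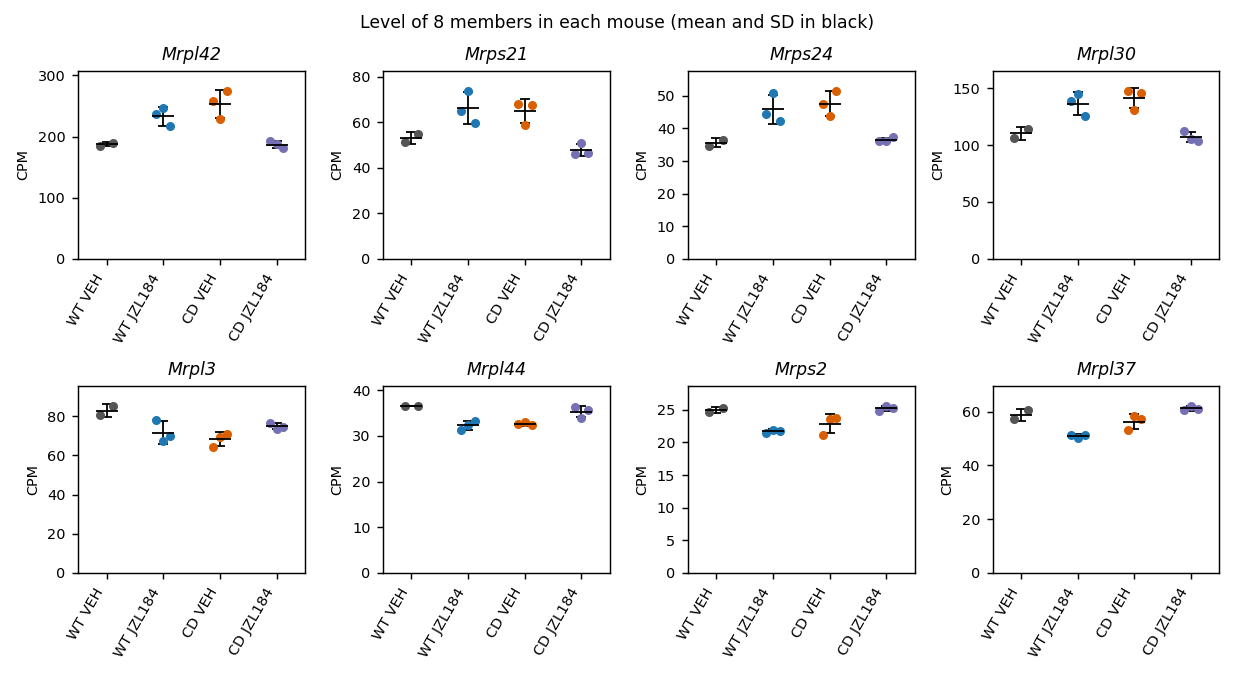
CPM (axis from 0) of 8 members in each mouse (points), with the mean and SD of the group in black (2 mice in WT VEH and 3 in each of the others). Mrpl42, Mrps21, Mrps24 and Mrpl30 are higher in WT JZL184 and CD VEH than in the other groups, and Mrpl3, Mrpl44, Mrps2 and Mrpl37 show smaller differences that run the other way.

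The calls varied with transcript length. The mean transcript length of the members had a median of 1164 bases against 2305 bases over the tested genes with a length, and it ran from 379 (Mrps21) to 6073 bases. Over the 78 members the log2 fold-change had a Pearson correlation with log2 length of -0.46 for genotype under vehicle (CD VEH against WT VEH), -0.50 for JZL184 in WT mice and 0.47 for JZL184 in CD mice. Over the 11240 tested genes with a length the same values were -0.35, -0.28 and 0.41, and genes are not independent replicates. Of the 26 shortest members (379 to 918 bases), 10 were called higher in CD VEH and 15 lower in CD JZL184 against CD VEH. Of the 849 tested genes in this length range 42.8% and 54.3% were called so. Of the 26 longest (1498 to 6073 bases) the counts were 1 and 4, where 10.6% and 11.5% of 7760 tested genes were called. The median deviation of the 2249 shortest tested genes was positive in all WT JZL184 and CD VEH mice, from 0.00067 to 0.11, and negative in all WT VEH and CD JZL184 mice, from -0.10 to -0.060.

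With an offset for gene length in the edgeR model the median of the members turned. For JZL184 in CD mice it became 0.03, with 13 members called higher and 7 lower, and of the 24 members called lower without the offset 6 were still called lower. Over all tested genes 14.8% were then higher and 12.2% lower. The 6 were Mrpl30, Mrpl32, Mrpl47, Mrps14, Mrps16 and Mrps24. In CD VEH against WT VEH 2 were higher and 8 lower (median -0.06), against 11.2% and 13.5% of all tested genes. For JZL184 in WT mice 1 was higher and 14 lower (median -0.11), against 13.2% and 14.3%. In CD JZL184 against WT JZL184 17 were higher and 2 lower (median 0.08), against 20.3% and 16.6%. In the interaction 23 were higher and 6 lower (median 0.14), against 26.5% and 21.2%. For JZL184 in CD mice Mrps21 lost its call at 0.02, and Mrpl42 was -0.11 (edgeR adjusted p = 0.17). In the interaction Mrpl19 lost its call at 0.17 (edgeR adjusted p = 0.23). The calls that remained in the interaction under both length offsets, which use the mean or the longest transcript, include Mrpl30, Mrpl32, Mrps14 and Mrps24 on the negative side and Mrpl3, Mrpl37, Mrpl44, Mrpl45, Mrpl49, Mrps2 and Mrps27 on the positive side. Whether the relation with length comes from the tissue or from the libraries was not tested.

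**Figure D3:**
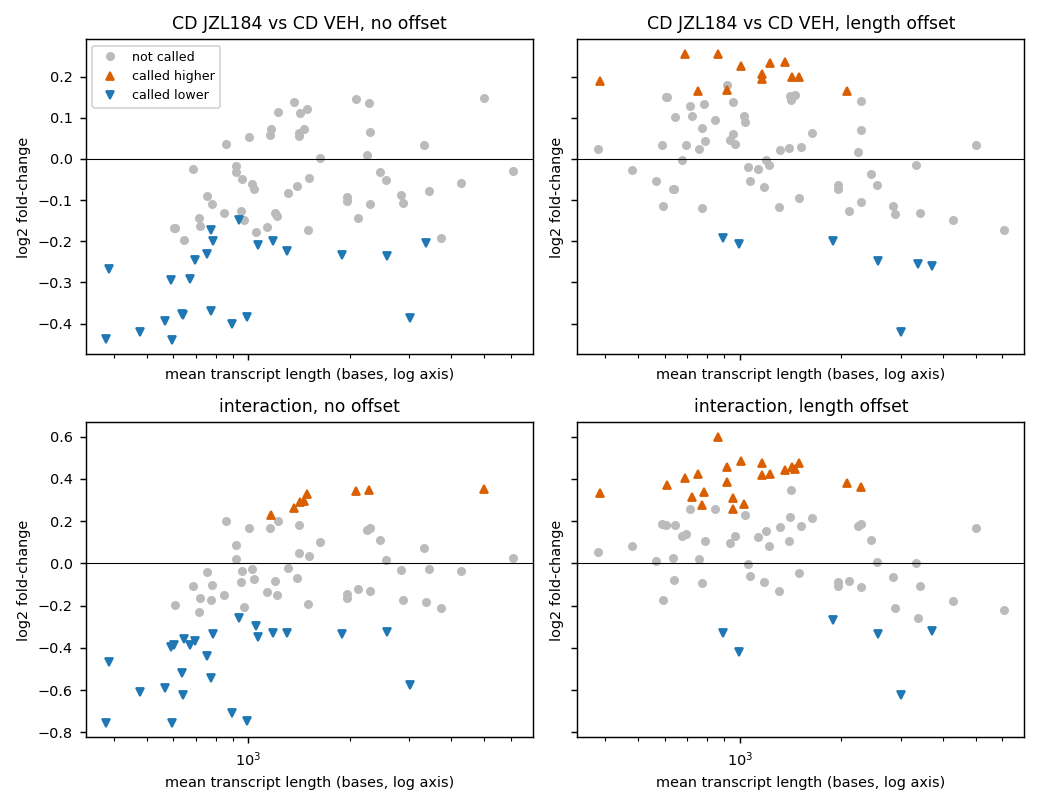
log2 fold-change of the 78 members (y) against mean transcript length in bases (x, log axis), for CD JZL184 against CD VEH (top) and the interaction (bottom), without (left) and with (right) an offset for gene length. Without the offset the members called lower are mostly short, and with it 13 and 23 members are called higher.

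**Figure D4:**
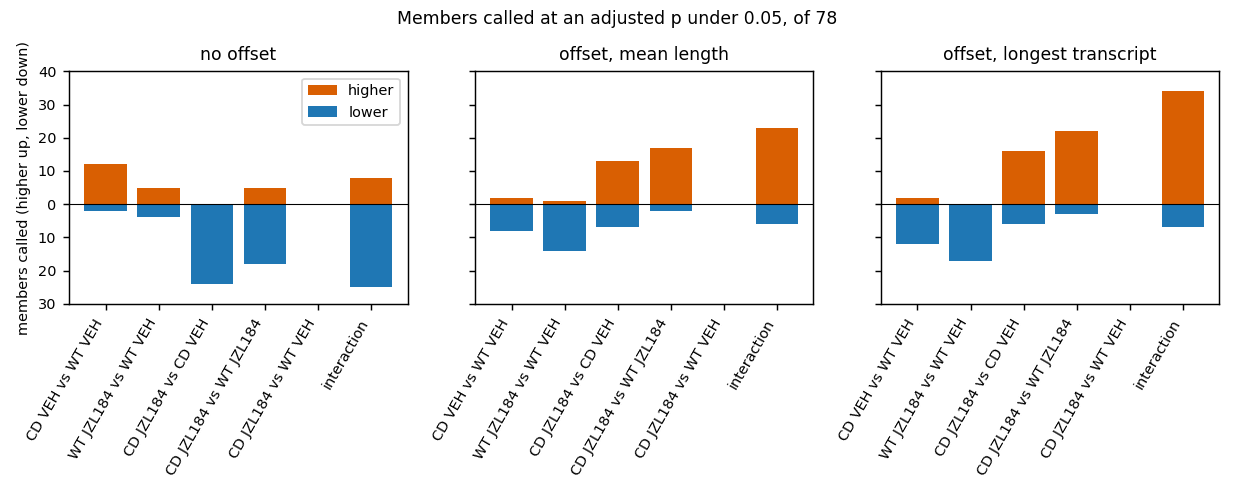
Number of members of 78 called higher (bars up) and lower (bars down) at an adjusted p under 0.05 in 6 comparisons, without an offset, with an offset for mean transcript length and with one for the longest transcript. The side with more calls changes in the comparisons that have calls, for instance from 0 higher and 24 lower to 13 higher and 7 lower in CD JZL184 against CD VEH.

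Mrpl32, a large subunit protein with a bacterial counterpart, is outside the rule for named genes and was named after its values were seen. It was 15.7, 15.6 and 15.6 CPM in CD JZL184 against 20.8, 19.1 and 21.4 CPM in CD VEH, without overlap, and fell by 0.39 ± 0.08 on the log2 scale (edgeR adjusted p = 0.0046). With the length offset the value was -0.42 (edgeR adjusted p = 0.0060). Mrps14, of the small subunit, was 29.6, 31.01 and 29.4 CPM in CD JZL184 against 34.04, 34.2 and 37.6 CPM in CD VEH. It changed by -0.23 ± 0.07 (edgeR adjusted p = 0.019), and by -0.20 with the offset (edgeR adjusted p = 0.043). Mrpl44 was 31.3, 32.4 and 33.2 CPM in WT JZL184 and 36.4, 33.9 and 35.7 CPM in CD JZL184, and these groups did not overlap, but the difference of 0.13 did not pass the test (edgeR adjusted p = 0.060). Its interaction term was 0.29 (edgeR adjusted p = 0.0072) without the offset and 0.46 (edgeR adjusted p = 0.0010) with it.

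By subunit, 8 of 26 small subunit members and 15 of 51 large subunit members were called lower in CD JZL184 against CD VEH, with medians of -0.10 and -0.13. By origin, 17 of 45 members with a bacterial counterpart and 5 of 29 particular to mitochondria were called lower, with medians of -0.15 and -0.06. Over all tested genes 17% were called lower, and 5 of 29 is near that share. These counts are without the gene length offset, with which 7 of all 78 members were called lower and 13 higher. No test of these differences was made. Several members with central roles were called in none of the comparisons without an offset. Mrps12, a protein of the decoding centre, was 0.13 for genotype under vehicle and -0.02 for JZL184 in CD mice. Mrpl12 and Mrpl10, which form the stalk that recruits translation factors, were -0.08 and 0.11 for that effect of JZL184, but Mrpl10 was called higher with the gene length offset (0.23, edgeR adjusted p = 0.032), and both were called higher in the interaction with the longest-transcript offset. Mrpl11, at the base of the stalk, was called lower at -0.20 (edgeR adjusted p = 0.038) but was -0.069 with the gene length offset (edgeR adjusted p = 0.43). Mrps22 (-0.13), Mrps28 (-0.11), Mrps30 (0.03), Mrps18a (-0.09), Mrps18b (-0.14) and Mrpl58 (-0.10), a peptidyl-tRNA hydrolase built into the large subunit, did not pass there. Mrps36 was called lower at -0.38 (edgeR adjusted p = 0.0023), but its value was -0.07 with the length offset. Of the 78 members, 40 (51.3%) were called in none of the 6 comparisons, against 41.2% of all tested genes.

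Related gene lists are given by their counts in CD JZL184 against CD VEH, where 16.8% of all tested genes were called higher and 17% lower. These counts are without an offset for gene length, and the lists were not recomputed with it. With it the members were 13 higher and 7 lower. Without it 54.3% of tested genes in the length range of the shortest members were called lower, and 11.5% in that of the longest. The part of length in the differences between lists was not tested. Of the 5 mitoribosomal proteins with other symbols, Chchd1 and Aurkaip1 were lower, at -0.51 and -0.27 (edgeR adjusted p = 0.0020 and 0.015), and Dap3 (0.01), Ptcd3 (0.11) and Gadd45gip1 (0.06) did not pass. Among 24 tested genes for assembly and rRNA modification 1 was called higher (Dhx30, an RNA helicase, 0.19) and 1 lower (Malsu1, an assembly factor of the large subunit, -0.25). Among 16 translation factors 3 were higher and 1 lower, a number of higher genes near the background. Lrpprc, which stabilises mitochondrial mRNAs, was at 0.50 and its partner Slirp at -0.56, the elongation factor Gfm2 was at 0.34, and Tufm (0.15) did not pass. Among 11 genes for transcription and DNA maintenance 3 were higher and 1 lower, with the helicase Twnk at 0.38 and the mitochondrial RNA polymerase Polrmt at 0.34, Ssbp1 at -0.32, and Tfam at 0.00 not called. Of 10 tested regulators of nuclear genes for mitochondrial proteins 3 were higher and 0 lower by edgeR (5 and 0 at an unadjusted p under 0.05). Gabpa was 0.22 and Hcfc1 0.33, and Nrf1 (-0.05) and Yy1 (0.13) did not pass. The highest value among these regulators was 0.50, in a gene not named here. For comparison with the members (0 higher, 24 lower, median -0.12), the values in 2 larger lists were those of the 79 tested nuclear subunits of the respiratory chain (2 higher, 53 lower, median -0.27) and the 80 tested cytoplasmic ribosomal protein genes (0 higher, 77 lower, median -0.49). No test between lists was made.

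**Figure D5:**
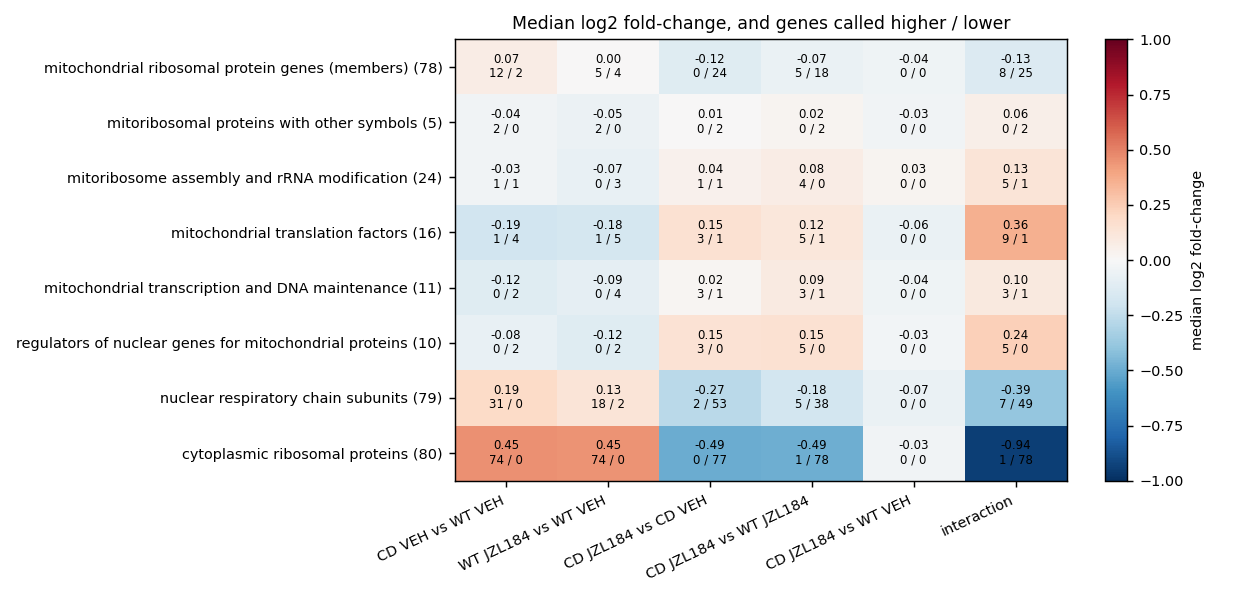
Median log2 fold-change (colour and upper number) and genes called higher / lower (lower numbers) in 8 lists (rows, tested genes in brackets) and 6 comparisons (columns). No offset for gene length was used. The members sit between the cytoplasmic ribosomal proteins, with medians of 0.45 and -0.49, and the translation factors, whose medians of -0.19 and 0.15 run the other way, for genotype under vehicle and for JZL184 in CD mice.

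Markers of cell types moved with the groups. The summed level of 6 cardiomyocyte markers was 32020 and 32498 CPM in WT VEH, 23242 to 31708 CPM in WT JZL184, 28060 to 30449 CPM in CD VEH and 30829 to 32755 CPM in CD JZL184. For genotype under vehicle 2 of these markers were called lower and 0 higher, for JZL184 in WT mice 3 lower and 0 higher, and for JZL184 in CD mice 3 higher and 1 lower. The summed level of 5 endothelial markers was 484 and 491 CPM in WT VEH, 744 to 767 CPM in WT JZL184, 619 to 685 CPM in CD VEH and 477 to 560 CPM in CD JZL184. Sums of 5 smooth muscle and pericyte markers were 577 and 583, 829 to 895, 790 to 911 and 561 to 575 CPM in the same order, and those of 5 macrophage markers 105 and 112, 136 to 228, 146 to 184 and 95.1 to 112 CPM. Fibroblast markers were 563 and 588, 726 to 898, 668 to 754 and 528 to 581 CPM. The 3 erythroid markers summed to 1260 and 1566, 1634 to 3344, 1258 to 11797 and 886 to 1332 CPM. Sums of 4 atrial markers were 171 and 194, 111 to 221, 50.5 to 148 and 74.2 to 125 CPM, so that both CD groups lay below WT VEH and overlapped WT JZL184. The 4 adipocyte markers summed to at most 2.81 CPM in any mouse. The part of these cells in the members' differences was not tested.

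Promoters of the members often held motifs of factors that act on nuclear genes for mitochondrial proteins. RefSeq promoters (build GRCm38.p6, 250 bases before to 50 after the start) were found for 69 of the 78 members, 75 promoters in all. Searched on both strands, an NRF1-type motif (gcgcntgcg) was in 24% of them against 6.31% of all 32851 promoters of the table, an ETS and GABP type (ccggaag) in 34.7% against 8.86%, and a YY1-type (aanatggcg) in 14.7% against 2.38%. Any of the 3 was in 58.7% against 15.5%. By call in the interaction without an offset, 56% of 25 promoters of members called lower, 71.4% of 7 of members called higher and 58.1% of 43 of the others held one, and no test between these shares was made. The 250 bases before the start are shown for 2 members lower in the interaction and 2 higher by the calls without an offset (with the gene length offset Mrps21 was 0.054 and Mrpl42 -0.17, neither called), with motif matches in capitals. They lie on chromosome 3 (minus strand) for Mrps21, 10 (minus) for Mrpl42, 11 (plus) for Mrpl45 and 2 (plus) for Mrps2, at chr3:95871515-95871764, chr10:95501950-95502199, chr11:97315466-97315715 and chr2:28467816-28468065.
Mrps21: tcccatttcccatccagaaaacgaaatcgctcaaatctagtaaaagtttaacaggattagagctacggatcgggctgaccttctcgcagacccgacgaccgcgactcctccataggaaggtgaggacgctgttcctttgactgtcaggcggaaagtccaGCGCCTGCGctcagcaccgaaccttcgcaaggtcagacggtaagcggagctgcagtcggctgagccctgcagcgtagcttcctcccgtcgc
Mrpl42: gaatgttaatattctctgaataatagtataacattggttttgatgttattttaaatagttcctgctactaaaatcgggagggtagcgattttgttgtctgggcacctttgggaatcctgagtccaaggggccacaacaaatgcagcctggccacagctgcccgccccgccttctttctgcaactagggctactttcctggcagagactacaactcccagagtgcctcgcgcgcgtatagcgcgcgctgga
Mrpl45: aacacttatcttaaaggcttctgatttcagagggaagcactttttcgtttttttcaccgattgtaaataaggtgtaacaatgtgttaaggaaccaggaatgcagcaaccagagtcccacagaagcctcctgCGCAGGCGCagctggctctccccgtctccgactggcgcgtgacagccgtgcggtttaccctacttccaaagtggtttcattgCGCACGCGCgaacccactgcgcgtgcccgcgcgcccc
Mrps2: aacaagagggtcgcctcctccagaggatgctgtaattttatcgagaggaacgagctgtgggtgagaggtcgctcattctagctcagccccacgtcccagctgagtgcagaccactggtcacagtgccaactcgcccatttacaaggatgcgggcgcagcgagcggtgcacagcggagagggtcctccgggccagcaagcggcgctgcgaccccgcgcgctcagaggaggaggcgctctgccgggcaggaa
Mrps21 had an NRF1-type match that began at -91 relative to the start, and Mrpl45 had matches at -119 and -37, whereas Mrpl42 and Mrps2 had none of the 3 in these windows. A match describes the letters and is no evidence of binding.

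Many members start near the start of a gene on the other strand. Starts were counted in either order, so that in some pairs the genes overlap. A protein-coding start on the opposite strand lay within 1000 bases for 33 of 78 members (42.3%) against 10.8% of 21992 protein-coding symbols. In CD JZL184 against CD VEH 27 of these neighbours were tested. Both genes were called in the same direction in 4 pairs (those of Mrpl30, Mrpl32, Mrpl36 and Mrpl47) and in opposite directions in 1. The member alone was called in 1, the neighbour alone in 2, and neither in 19. Mrpl46 and Mrps11 are neighbours of each other, and their pair is counted among the 19 from each side. The start of Mitd1 lay 66 bases from that of Mrpl30, and Mitd1 fell by 0.60 on the log2 scale (edgeR adjusted p = 0.0027), as Mrpl30 fell by 0.40. Twnk is such a neighbour of Mrpl43, and rose by 0.38 while Mrpl43 was not called. Exons of Twnk and Mrpl43 overlap, and Mrpl43 shares 31.6% of its words with Twnk, so that the split of their reads is uncertain. Exons of Mrpl47 and its neighbour Ndufb5 overlap too, with 13.4% of the words of Mrpl47 shared. Ndufs6, of complex I, is the neighbour of Mrpl36, and both were called lower, at -0.25 and -0.17. The pair with opposite calls, named after its values were seen, was Mrpl41 (-0.29, edgeR adjusted p = 0.0093) and Pnpla7 (0.22, edgeR adjusted p = 0.023). With the length offset Mrpl36 (0.074) and Mrpl41 (0.034) were not called.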

How the data were processed

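RNA of 11 mouse ventricles in 4 groups was compared. Estimated counts per gene, not normalized, were deposited by the authors, who had used Salmon 0.7.2 with Ensembl 85 transcripts (GRCm38, mm10 per the labels) and tximport 1.2.0. The number of columns without a group was 0. Columns give the group and a letter but no sample number, so mice were named by group and letter.

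After rounding, the quasi-likelihood test of edgeR 4.0.16 was run with TMM factors (R 4.3.3, limma 3.58.1, robust estimation off). All 4 groups entered 1 model without covariates. Tested were 11319 genes whose average log2 CPM reached 1, with Benjamini-Hochberg adjustment over them. Each mouse was taken as a replicate. Alternatives were DESeq2 1.42.0, RLE and upper-quartile scaling, other filters, the compared groups alone, no mitochondrial genome, offsets for gene length or GC content (loess, span 0.5), a threshold of 0.01 on the adjusted p, and omission of each mouse. The offset for the longest transcript and a block by column letter were added after seeing the data. The fit was tested on simulated data for CD VEH against WT VEH only. The planted changes were larger than those of the members between groups and had no relation to length. Smaller changes were not covered by it. GENCODE M21 (GRCm38) gave positions and lengths, and 22315 of 22608 rows matched.

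Named genes were the 3 highest and 3 lowest called members of each comparison, those highest and lowest per kilobase, members chosen by role, called members against the median, and set genes of the other lists. The members and lists were chosen with earlier results of these data known. Sets of genes were described by counts and medians, with no set test.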

Additional observations from a re-analysis of the deposited data

Results flagged for a closer look

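The JZL184 effect differed between CD and WT mice, by the interaction term of edgeR, in 25 members on the negative side and 8 on the positive side of 78, where 26.2% and 25.3% of all tested genes were called. With the gene length offset 6 were negative and 23 positive. The negative terms on the log2 scale among named members were Mrpl42 (-0.76), Mrps21 (-0.76), Mrps24 (-0.75), Mrpl30 (-0.71), Mrps18c (-0.62), Mrpl33 (-0.61), Mrpl32 (-0.58), Mrps36 (-0.52), Mrpl54 (-0.39), Mrps14 (-0.34), Mrpl55 (-0.33), Mrpl11 (-0.33) and Mrps15 (-0.26). Of these, Mrps21 (0.054), Mrpl33 (0.080), Mrps36 (0.023), Mrpl54 (0.18), Mrpl55 (0.11) and Mrps15 (0.10) turned positive with the gene length offset, and Mrpl42 (-0.17), Mrps18c (-0.077) and Mrpl11 (-0.087) lost their calls. The positive terms were Mrpl19 (0.35), Mrpl3 (0.35), Mrps2 (0.34), Mrpl37 (0.33), Mrpl45 (0.29), Mrpl44 (0.29), Mrps27 (0.26) and Mrpl49 (0.23). Of these Mrpl19 lost its call with that offset (0.17, edgeR adjusted p = 0.23). WT VEH, which enters every interaction term, has 2 mice, and without them in turn 18 and 22 members were called on the negative side.

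Groups of 3 mice or fewer were not searched for single mice that stand apart.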

How the results depend on the processing

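The columns of the table carry letters and no sample numbers, so the planned replicate block by number could not be fitted. A replicate block by letter, chosen after seeing the data (5 letters, 3 residual degrees of freedom), gave 4 higher and 1 lower for CD VEH over WT VEH, 0 higher and 0 lower for WT JZL184 over WT VEH, 0 higher and 4 lower for CD JZL184 over WT JZL184, 4 higher and 14 lower in the interaction, and 22 lower for CD JZL184 over CD VEH. No label says that a letter pairs mice, and of 8 pairs of mice with the same letter 1 had a correlation of deviations over 0.1. For 24 members named in the text, 67 called log2 fold-changes were recomputed under each alternative, except that the compared groups alone gave 46 of them, since the interaction needs all groups. DESeq2 kept the direction and call of all 67, and leaving out each mouse changed no sign in 737 refits but lost the call in 153 of them. The gene length offset turned 17 and lost the call of 20, and the longest-transcript offset, chosen after seeing the data, turned 16 and lost 23. With upper-quartile scaling, the members called were 19 higher for CD VEH over WT VEH, 1 lower for CD VEH over WT VEH, 9 higher for WT JZL184 over WT VEH, 1 lower for WT JZL184 over WT VEH, 3 higher for CD JZL184 over WT JZL184. With no filter on low counts, the members called were 1 lower for CD VEH over WT VEH, 1 lower for WT JZL184 over WT VEH, 10 lower for CD JZL184 over WT JZL184. With at least 10 counts in every mouse, the members called were 1 lower for CD VEH over WT VEH. With the gene length offset, the members called were 2 higher for CD VEH over WT VEH, 8 lower for CD VEH over WT VEH, 1 higher for WT JZL184 over WT VEH, 14 lower for WT JZL184 over WT VEH, 13 higher for CD JZL184 over CD VEH, 7 lower for CD JZL184 over CD VEH, 17 higher for CD JZL184 over WT JZL184, 2 lower for CD JZL184 over WT JZL184, 23 higher in the interaction, 6 lower in the interaction. With the longest-transcript offset, the members called were 2 higher for CD VEH over WT VEH, 12 lower for CD VEH over WT VEH, 0 higher for WT JZL184 over WT VEH, 17 lower for WT JZL184 over WT VEH, 16 higher for CD JZL184 over CD VEH, 6 lower for CD JZL184 over CD VEH, 22 higher for CD JZL184 over WT JZL184, 3 lower for CD JZL184 over WT JZL184, 34 higher in the interaction, 7 lower in the interaction. With an adjusted p under 0.01, the members called were 4 higher for CD VEH over WT VEH, 0 lower for CD VEH over WT VEH, 0 higher for WT JZL184 over WT VEH, 0 lower for WT JZL184 over WT VEH, 12 lower for CD JZL184 over CD VEH, 1 higher for CD JZL184 over WT JZL184, 9 lower for CD JZL184 over WT JZL184, 3 higher in the interaction, 16 lower in the interaction. With DESeq2, the members called were 8 higher for WT JZL184 over WT VEH, 10 higher for CD JZL184 over WT JZL184. With only the groups compared, the members called were 1 higher for WT JZL184 over WT VEH, 0 lower for WT JZL184 over WT VEH, 1 higher for CD JZL184 over CD VEH, 2 higher for CD JZL184 over WT JZL184. With the GC content offset, the members called were 8 higher for WT JZL184 over WT VEH, 7 lower for WT JZL184 over WT VEH, 10 higher for CD JZL184 over WT JZL184. Leaving out each mouse in turn gave 0 to 16 higher for CD VEH over WT VEH, 0 to 3 lower for CD VEH over WT VEH, 0 to 9 higher for WT JZL184 over WT VEH, 0 to 15 lower for WT JZL184 over WT VEH, 0 to 2 higher for CD JZL184 over CD VEH, 12 to 29 lower for CD JZL184 over CD VEH, 2 to 15 higher for CD JZL184 over WT JZL184, 9 to 23 lower for CD JZL184 over WT JZL184, 4 to 14 higher in the interaction. With the gene length offset, the members' median log2 fold-change turned to -0.059 for CD VEH over WT VEH, -0.11 for WT JZL184 over WT VEH, 0.028 for CD JZL184 over CD VEH, 0.078 for CD JZL184 over WT JZL184, 0.14 in the interaction. For CD VEH over WT VEH, Mrpl33 turned to -0.043, Mrpl54 turned to -0.057, Mrps18c turned to -0.0085, Mrps21 turned to -0.094. For WT JZL184 over WT VEH, Mrps21 turned to -0.029. For CD JZL184 over CD VEH, Mrpl36 turned to 0.074, Mrpl55 turned to 0.045, Mrps15 turned to 0.045, Mrps21 turned to 0.025. For CD JZL184 over WT JZL184, Mrpl33 turned to 0.038, Mrps36 turned to 0.10. In the interaction, Mrpl33 turned to 0.080, Mrpl54 turned to 0.18, Mrpl55 turned to 0.11, Mrps15 turned to 0.10, Mrps21 turned to 0.054, Mrps36 turned to 0.023. With the longest-transcript offset, the members' median log2 fold-change turned to -0.086 for CD VEH over WT VEH, -0.13 for WT JZL184 over WT VEH, 0.078 for CD JZL184 over CD VEH, 0.10 for CD JZL184 over WT JZL184, 0.22 in the interaction. For CD VEH over WT VEH, Mrpl33 turned to -0.065, Mrpl54 turned to -0.093, Mrps18c turned to -0.0049, Mrps21 turned to -0.064. For WT JZL184 over WT VEH, Mrps21 turned to -0.0024. For CD JZL184 over CD VEH, Mrpl33 turned to 0.013, Mrpl36 turned to 0.10, Mrpl55 turned to 0.067, Mrps15 turned to 0.12. For CD JZL184 over WT JZL184, Mrpl33 turned to 0.076, Mrps36 turned to 0.12. In the interaction, Mrpl33 turned to 0.14, Mrpl54 turned to 0.27, Mrpl55 turned to 0.14, Mrps15 turned to 0.22, Mrps36 turned to 0.072. Without mouse C of WT VEH 0 members were higher for CD VEH over WT VEH, without mouse D 4, without mouse A or E of CD VEH 5 each, and without mouse E of CD JZL184 7. For WT JZL184 over WT VEH, 15 were lower without mouse A of WT JZL184, 0 without mouse B, and 9 were higher without mouse D. In the interaction 14 were higher without mouse A of WT JZL184 and 4 without mouse D of WT VEH. Where the counts changed, the cause was not tested.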
